A study of Mus musculus with 30 samples.

Results

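Fatty acids can be oxidized from their methyl end, a route that starts in the endoplasmic reticulum with cytochromes P450 of family 4. Expression of 6 genes of this omega-oxidation route was followed in mouse liver: Cyp4a14, Cyp4a31, Cyp4f14, Cyp4f15 and Cyp4f18, which encode cytochromes P450, and Aldh3a2, which encodes the fatty aldehyde dehydrogenase. A gene was represented by every probe set whose only gene symbol was its own, and this gave 1 probe set for each of the 6 genes among 21218 such probe sets for 18820 genes. Cyp4a10, a further gene of the Cyp4a subfamily, is named only on 2 probe sets that carry several symbols, and is therefore not reported.

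Livers came from male mice of about 8 weeks with 4 genotypes: wild-type on a C57BL/6 background, PPARα-/- (the Pparatm1Gonz allele, backcrossed to C57BL/6J), CREB3L3-/- (backcrossed to C57BL/6) and the combined PPARα/CREB3L3-/- obtained by interbreeding these lines. Both deletions are present in the whole animal, so that effects of other organs on the liver are included. Mice either were fasted for 16 h or received a ketogenic diet for 4 days, the latter with food available until the end. Each group had 4 livers, except both PPARα-/- groups with 3, and RNA from the 30 livers was measured on separate Affymetrix arrays (Mouse Gene 1.1 ST). Values are log2 intensities after robust multichip averaging (RMA), so that a difference of 1 is a doubling, and a level is compared only within 1 probe set.

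In omega-oxidation a CYP4 enzyme hydroxylates the terminal carbon of a fatty acid, the alcohol is oxidized to an aldehyde and then to an acid by alcohol and aldehyde dehydrogenases, and the resulting dicarboxylic acid is shortened in peroxisomes. The Cyp4a genes are classical targets of PPARα, a nuclear receptor activated by fatty acids that governs the hepatic response to fasting. Enzymes of the CYP4F subfamily also hydroxylate eicosanoids such as leukotriene B4. CREB3L3, also called CREBH, is a liver-enriched transcription factor that resides in the membrane of the endoplasmic reticulum until it is cleaved.

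Array medians lay between 4.22 and 4.38, no arrays were identical, and arrays of the same group correlated at 0.978 to 0.990 across probe sets. The mean level of Creb3l3 was 11.10 in fasted wild-type mice against 4.90 in both fasted CREB3L3-/- and fasted PPARα/CREB3L3-/- mice, and 10.45 against 4.37 and 4.90 on the ketogenic diet. Ppara was less informative: in fasted PPARα-/- mice its level was 9.19 against 10.24 in wild-type mice (difference -1.04, SE 0.29, adjusted p = 0.0274), which missed the criterion for a call. Which of its probes lie in the deleted part of the gene was not examined. On the ketogenic diet the level of Ppara was 7.62 in PPARα-/-, 8.64 in CREB3L3-/- and 7.26 in the combined knockout, against 10.49 in wild-type mice. All of these ketogenic differences passed the test. The summed log2 level of 7 hepatocyte markers ranged from 14.98 to 15.75 between group means, and was lowest in ketogenic CREB3L3-/- mice.

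To study the dependence of the route on PPARα and CREB3L3 in the fasted state, each knockout was compared with fasted wild-type mice. A probe set was called changed when P was under 0.001 and the fold change beyond 1.2, and adjusted p values are Benjamini-Hochberg values of the limma fit over all 35556 probe sets. Since the criterion applies to the unadjusted P, a difference with a small adjusted p can remain uncalled. Cyp4a14, Cyp4a31 and Aldh3a2 were lower in PPARα-/- and in PPARα/CREB3L3-/- mice. That is 3 of the 6 genes, where 1.77% of all probe sets were lower in PPARα-/- and 2.79% in PPARα/CREB3L3-/- mice. None of the 6 was called in CREB3L3-/- mice, where 1.39% of all probe sets were called. In that comparison 0 genes had an unadjusted p under 0.05 in the limma fit, and the intensity-based moderated t statistic (IBMT) also called 0.

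Cyp4a14, a fatty acid omega-hydroxylase, had the widest range of the 6 genes. In the fasted wild-type livers its level was 12.95, 12.93, 12.93 and 12.86. In fasted PPARα-/- livers it was 8.49, 8.99 and 8.61, and in fasted PPARα/CREB3L3-/- livers 10.09, 8.26, 8.63 and 10.25. Thus all livers without PPARα lay far below all wild-type livers, and the combined knockouts fell into 2 livers above 10 and 2 below 9. Fasted CREB3L3-/- livers gave 13.20, 13.01, 13.00 and 13.01, each above every wild-type liver although only by a mean of 0.14 (SE 0.47, adjusted p = 0.953). The decrease was 18.7-fold in PPARα-/- (log2 -4.22, SE 0.50, adjusted p = 3.75e-06) and 12.2-fold in PPARα/CREB3L3-/- mice (log2 -3.61, SE 0.47, adjusted p = 4.89e-06). The highest value of any probe set in the series was 13.7, and whether the Cyp4a14 signal of the wild-type livers was close to saturation was not tested.

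Cyp4a31 belongs to the same subfamily and had the same calls in the fasted state. Its level in wild-type livers was 11.49, 11.14, 11.26 and 11.21, as compared with 8.49, 8.04 and 7.55 in PPARα-/- livers. PPARα/CREB3L3-/- livers gave 9.34, 8.16, 8.27 and 9.46, again with replicates 1 and 4 above the others. The decrease was 9.50-fold in PPARα-/- (adjusted p = 4.22e-07) and 5.52-fold in PPARα/CREB3L3-/- mice (adjusted p = 4.45e-06). CREB3L3-/- livers gave 12.05, 11.94, 11.77 and 11.48, which overlapped the wild-type range (difference 0.54, SE 0.32, adjusted p = 0.553). Genes of the Cyp4a subfamily are very similar in sequence, and how far this probe set also detects transcripts of its neighbours was not tested.

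Aldh3a2 catalyses the oxidation of long-chain fatty aldehydes to fatty acids. Fasted wild-type livers gave 11.78, 11.71, 11.50 and 11.85, and fasted CREB3L3-/- livers 11.62, 11.85, 11.85 and 11.68. PPARα-/- livers gave 9.76, 10.42 and 9.99, and PPARα/CREB3L3-/- livers 10.63, 10.40, 10.57 and 10.96. The first pair of groups overlapped, whereas the livers without PPARα all lay lower. The decrease was 3.15-fold in PPARα-/- (log2 -1.66, SE 0.18, adjusted p = 5.04e-07) and 2.10-fold in PPARα/CREB3L3-/- mice (log2 -1.07, SE 0.16, adjusted p = 4.92e-05). The difference between these knockouts, 0.58 (SE 0.18, adjusted p = 0.109), was not called, although it was without PPARα-/- fasted replicate 2 (0.77, adjusted p = 0.0312) and without CREB3L3-/- ketogenic replicate 3, an array of neither group (adjusted p = 0.0529).

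None of the 3 CYP4F genes was called in a fasted knockout. Cyp4f15, a hydroxylase of the liver, was 10.41, 10.53, 10.57 and 10.44 in wild-type livers, 9.78, 9.65 and 9.90 in PPARα-/- livers and 9.47, 9.45, 9.51 and 9.80 in PPARα/CREB3L3-/- livers. Hence, the livers without PPARα did not overlap with wild-type. With the spread shared over all 8 groups the differences of -0.71 (SE 0.31, adjusted p = 0.209) and -0.93 (SE 0.29, adjusted p = 0.0362) were not called. When only the fasted arrays were fitted, both were called (adjusted p = 0.000241 and 4.26e-06), since the ketogenic livers, with an SD of up to 1.12 in a group for this gene, no longer entered the spread. The difference in PPARα/CREB3L3-/- mice was also called in the fit of all groups without CREB3L3-/- ketogenic replicate 1 (adjusted p = 0.00425).

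Cyp4f14 was 8.79, 9.14, 9.13 and 9.08 in wild-type livers and 8.83, 9.29 and 8.97 in PPARα-/- livers, which overlapped. CREB3L3-/- livers gave 9.57, 9.46, 9.67 and 9.34, and PPARα/CREB3L3-/- livers 9.74, 9.51, 10.00 and 10.14, so that both groups without CREB3L3 lay above wild-type without overlap. The differences of 0.47 (SE 0.33, adjusted p = 0.641) and 0.81 (SE 0.33, adjusted p = 0.124) were not called in the fit of all groups. The latter was called with the fasted arrays alone (adjusted p = 0.0011) and without CREB3L3-/- ketogenic replicate 1 (adjusted p = 0.00995), whereas the former was called only when the arrays of these 2 groups were fitted on their own (adjusted p = 0.0597). Cyp4f18, whose product hydroxylates leukotriene B4 in myeloid cells, lay below the array medians in every fasted liver, between 2.76 and 3.46, and no knockout differed by more than 0.23 from wild-type mice.

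**Figure D1:**
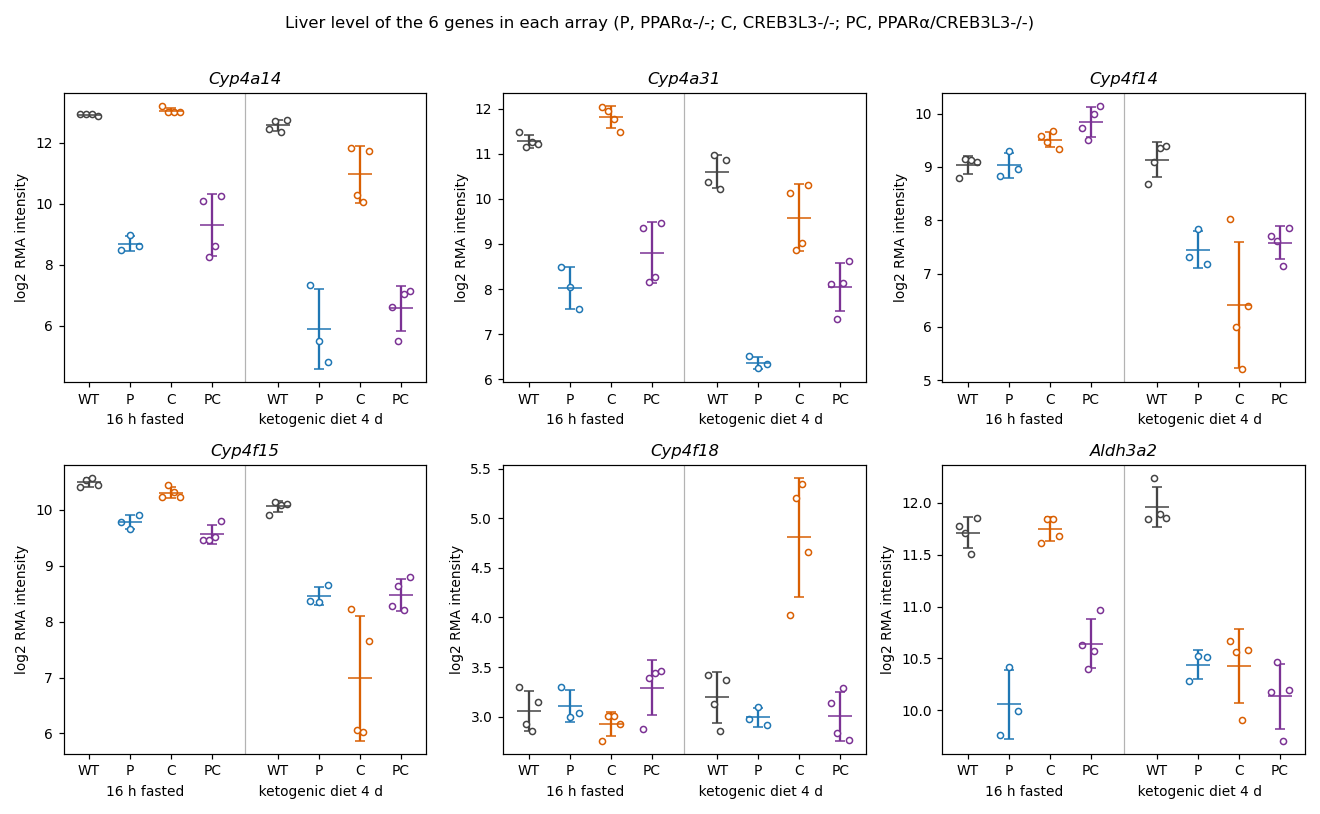
Log2 RMA intensity of the 6 genes (y axis, a separate scale for each panel) in the 30 livers by genotype and regimen (x axis). Open circles are single livers, horizontal lines are group means and bars are the SD (n = 4, or 3 in the PPARα-/- groups). Cyp4a14 falls from 12.95 in the highest fasted wild-type liver to 4.82 in the lowest ketogenic PPARα-/- liver, and Cyp4f18 is above the array medians only in ketogenic CREB3L3-/- livers, 3 of them above 4.38.

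To find out whether the route responds differently to a ketogenic diet, the same comparisons were made in mice on the diet. Here 5 of the 6 genes were lower in PPARα-/- and in PPARα/CREB3L3-/- mice, all but Cyp4f18, where 4.81% and 6.87% of all probe sets were lower, respectively. In CREB3L3-/- mice 3 genes were lower (Cyp4f14, Cyp4f15 and Aldh3a2) and 1 was higher (Cyp4f18), where 8.56% of all probe sets were lower and 12.8% higher, 21.4% in all. The median difference over the 6 genes was -1.65 for PPARα-/-, -1.56 for CREB3L3-/- and -1.70 for PPARα/CREB3L3-/- mice, beside medians over all probe sets of 0.0057, -0.065 and 0.014. These comparisons share the wild-type livers. Of 7 hepatocyte markers 5 were also lower in each of the 3 knockouts on the diet, beside the shares of all probe sets given above. The list medians were -0.46 for PPARα-/-, -0.64 for CREB3L3-/- and -0.39 for PPARα/CREB3L3-/- mice. The list includes Apoa1, which the paper counts among the targets of CREB3L3. The part of hepatocytes in the differences of the 6 genes was not tested. In whole liver, fewer hepatocytes and less RNA per hepatocyte cannot be told apart.

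Cyp4a14 fell furthest without PPARα. Its level was 12.44, 12.72, 12.36 and 12.74 in ketogenic wild-type livers, 7.35, 5.51 and 4.82 in PPARα-/- livers and 6.63, 5.50, 7.03 and 7.13 in PPARα/CREB3L3-/- livers. There was no overlap with wild-type mice, and the decrease was 102-fold (log2 -6.67, SE 0.50, adjusted p = 1.94e-10) and 63.6-fold (log2 -5.99, SE 0.47, adjusted p = 1.63e-10). The 102-fold decrease became larger without PPARα-/- ketogenic replicate 1, at a log2 difference of -7.40. CREB3L3-/- livers gave 11.84, 10.28, 10.05 and 11.72, each below every wild-type liver, with replicates 1 and 4 above replicates 2 and 3. The mean difference of -1.60 (SE 0.47, adjusted p = 0.00903) missed the criterion for a call. It met it without CREB3L3-/- ketogenic replicate 1 (-1.88, adjusted p = 0.00362), without PPARα-/- ketogenic replicate 1 (adjusted p = 0.00279) and with array weights (-1.72, adjusted p = 0.00415).

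Cyp4a31 showed the same order of single knockouts, but differed between the groups without PPARα. Ketogenic wild-type livers gave 10.36, 10.97, 10.21 and 10.86, and CREB3L3-/- livers 10.13, 8.87, 9.02 and 10.31. PPARα-/- livers gave 6.51, 6.24 and 6.34, and PPARα/CREB3L3-/- livers 8.10, 7.34, 8.13 and 8.62. All PPARα/CREB3L3-/- livers thus lay above all PPARα-/- livers and below all CREB3L3-/- livers. The decrease against wild-type mice was 18.8-fold in PPARα-/- (adjusted p = 5.85e-10) and 5.86-fold in PPARα/CREB3L3-/- mice (adjusted p = 5.75e-07). The difference of 1.68 between PPARα/CREB3L3-/- and PPARα-/- mice (SE 0.34, adjusted p = 0.00682) was called for this gene alone of the 6, where 2.42% of all probe sets were. The difference of -1.02 in CREB3L3-/- mice (SE 0.32, adjusted p = 0.0141) was not called, but was without CREB3L3-/- ketogenic replicate 4 (-1.26, adjusted p = 0.00355).

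Cyp4f14 and Cyp4f15 had their lowest group means in ketogenic CREB3L3-/- mice. Both enzymes are omega-hydroxylases expressed in liver, and RefSeq places the genes on the same chromosome. The stretches upstream of both gene records are shown, in GRCm38.p6 from RefSeq. They run in the direction of transcription and end before the first annotated base of the gene. The Cyp4f14 stretch is chr17:32917377-32917606 on the minus strand and the Cyp4f15 stretch is chr17:32685409-32685630 on the plus strand. Capitals mark the letters ATTGGCTG, the reverse complement of CAGCCAAT, which holds a CCAAT box.
Cyp4f14: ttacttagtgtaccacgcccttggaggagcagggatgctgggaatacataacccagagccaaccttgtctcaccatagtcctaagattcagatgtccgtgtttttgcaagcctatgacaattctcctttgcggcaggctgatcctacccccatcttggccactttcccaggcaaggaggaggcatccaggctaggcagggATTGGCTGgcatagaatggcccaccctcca
Cyp4f15: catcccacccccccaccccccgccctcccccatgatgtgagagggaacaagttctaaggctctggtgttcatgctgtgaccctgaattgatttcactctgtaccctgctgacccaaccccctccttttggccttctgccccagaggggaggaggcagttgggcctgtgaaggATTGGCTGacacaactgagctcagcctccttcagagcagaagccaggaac

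Motifs were searched on both strands in windows of 250 bases before the starts that RefSeq's promoter table gives for 27025 genes, among them 4 of the 6 genes, Cyp4f14, Cyp4f15, Cyp4f18 and Aldh3a2. For these 4 that start lies inside the gene record, which also holds other transcripts: the last 20 bases of the Cyp4f14 window (the most upstream of 4), 28 of the Cyp4f15 window and 42 of the Cyp4f18 window belong to the gene, and the Aldh3a2 window lies wholly within it. Neither the direct repeat of AGGTCA with 1 base between its copies, called DR1 and bound by PPARα with its partner RXR, nor AGGTCA itself occurred in these 4 windows. DR1 was held by 0.0407% and AGGTCA by 15.8% of the genes with a window, and their absence says only that these letters are not in these windows. CAGCCAAT, chosen after these sequences had been read, occurred once in each of the 4 windows and in 4.12% of all genes. Since Cyp4f14, Cyp4f15 and Cyp4f18 belong to the same subfamily, their matches need not be independent. In ketogenic CREB3L3-/- mice Cyp4f18 was higher and the other genes with a window were lower. Whether these letters have a part in the levels was not tested. Counted from the end of the window, CAGCCAAT began at base 50 in Cyp4f14, 78 in Cyp4f15, 48 in Cyp4f18 and 16 in Aldh3a2. In the printed stretches, which stop before the gene record, it began 30 bases before the end in Cyp4f14 and 50 in Cyp4f15. A match of letters is a description and not a binding site.

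Cyp4f14 in ketogenic wild-type livers was 8.69, 9.10, 9.36 and 9.39. It was 8.02, 6.00, 5.21 and 6.39 in CREB3L3-/- livers, 7.32, 7.84 and 7.18 in PPARα-/- livers and 7.70, 7.61, 7.14 and 7.86 in PPARα/CREB3L3-/- livers. Every knockout liver lay below every wild-type liver, and 3 of 4 CREB3L3-/- livers lay below all others, with replicate 1 as the exception. The decrease was 6.63-fold in CREB3L3-/- (log2 -2.73, SE 0.33, adjusted p = 1.93e-07), 3.22-fold in PPARα-/- (log2 -1.69, SE 0.36, adjusted p = 0.00109) and 2.95-fold in PPARα/CREB3L3-/- mice (log2 -1.56, SE 0.33, adjusted p = 0.000828). With the arrays on the diet alone, the last pair of decreases lost the call (adjusted p = 0.0223 and 0.0177).

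Cyp4f15 was 9.91, 10.14, 10.08 and 10.11 in ketogenic wild-type livers. CREB3L3-/- livers gave 8.22, 6.06, 6.03 and 7.65. PPARα-/- livers gave 8.36, 8.35 and 8.65, and PPARα/CREB3L3-/- livers 8.28, 8.64, 8.20 and 8.79. The ranges of the groups without PPARα were narrow and overlapped each other, whereas CREB3L3-/- livers were spread over more than 2 units, with replicate 1 close to the other knockouts. The decrease was 8.40-fold in CREB3L3-/- mice (log2 -3.07, SE 0.29, adjusted p = 2.75e-09), compared with 3.04-fold in PPARα-/- (log2 -1.61, adjusted p = 0.000441) and a log2 difference of -1.58 in PPARα/CREB3L3-/- mice (adjusted p = 0.000155). The 3.04-fold decrease lost its call with the arrays on the diet alone (adjusted p = 0.0159).

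The plot of Cyp4f14 against Cyp4f15 places 1 CREB3L3-/- liver on the diet among the other ketogenic knockouts and 3 below them on both axes. Between PPARα/CREB3L3-/- and CREB3L3-/- mice, Cyp4f15 was 1.49 higher in the combined knockout (SE 0.29, adjusted p = 0.000196). Cyp4f14 was 1.17 higher (SE 0.33, adjusted p = 0.00736), which was not called with all arrays but was without CREB3L3-/- ketogenic replicate 1 (1.71, adjusted p = 1e-06). The ranges of these groups overlapped for both genes, and the call of Cyp4f15 was lost with the ketogenic arrays alone (adjusted p = 0.00814). In this comparison 4 of the 6 genes were called, where 20.4% of all probe sets were: Cyp4a14 (-4.40), Cyp4a31 (-1.53) and Cyp4f18 (-1.80) were lower and Cyp4f15 was higher in the combined knockout. In the fasted state, by comparison, Cyp4a14 (13.4-fold), Cyp4a31 (8.01-fold) and Aldh3a2 (2.15-fold) were lower in the combined knockout than in CREB3L3-/- mice, where 2.37% of all probe sets were lower. Cyp4f15 (-0.75) joined them with the fasted arrays alone (adjusted p = 3.98e-05).

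**Figure D2:**
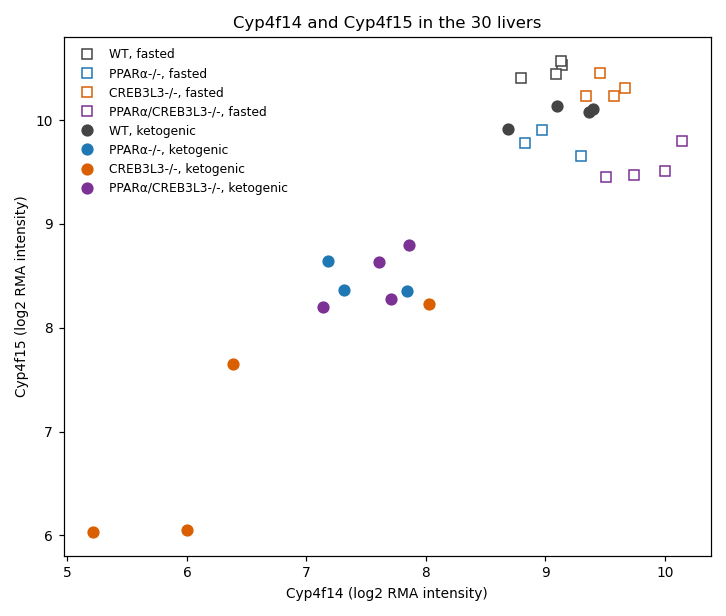
Level of Cyp4f15 (y axis) against Cyp4f14 (x axis), both in log2 RMA intensity, in each of the 30 livers. Squares are fasted and filled circles are ketogenic livers, coloured by genotype; 3 of the 4 ketogenic CREB3L3-/- livers lie at the lowest levels of both genes, and replicate 1 of that group lies at 8.02 and 8.22.

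Aldh3a2 was lower in each of the 3 knockouts on the diet. Wild-type livers gave 11.85, 12.24, 11.90 and 11.86, and PPARα-/- livers 10.28, 10.52 and 10.52. CREB3L3-/- livers gave 10.67, 10.56, 9.90 and 10.58, and PPARα/CREB3L3-/- livers 10.18, 10.46, 9.71 and 10.19. The knockouts overlapped each other and none overlapped with wild-type. The decrease was 2.87-fold in PPARα-/- (adjusted p = 2.77e-07), 2.89-fold in CREB3L3-/- (adjusted p = 2.07e-08) and 3.54-fold in the combined knockout (adjusted p = 2.07e-09). The difference between PPARα/CREB3L3-/- and CREB3L3-/- mice was -0.29 (95% interval -0.63 to 0.04), and that between PPARα/CREB3L3-/- and PPARα-/- mice -0.31 (95% interval -0.67 to 0.06).

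Cyp4f18 was the single gene of the 6 called higher in a knockout. In ketogenic CREB3L3-/- livers its level was 4.03, 5.20, 5.35 and 4.66, as compared with 3.42, 3.13, 2.86 and 3.37 in wild-type livers. PPARα-/- livers gave 2.97, 3.10 and 2.91, and PPARα/CREB3L3-/- livers 3.13, 2.83, 3.28 and 2.76. All CREB3L3-/- livers were above all other livers, with replicate 1, the liver with the highest Cyp4f14 and Cyp4f15 of its group, as the lowest. The increase was 3.06-fold (log2 1.61, SE 0.20, adjusted p = 3.83e-07), while the differences in PPARα-/- (-0.20, adjusted p = 0.657) and PPARα/CREB3L3-/- mice (-0.19, adjusted p = 0.607) were not called.

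Because Cyp4f18 is expressed in myeloid cells, markers of these cells are given beside it. Of 16 markers of macrophages and monocytes, 10 were higher in ketogenic CREB3L3-/- mice, and their summed log2 level was 12.89 to 13.20 there against 11.97 to 12.58 in wild-type livers. Among them, Cd68 differed by 2.14, Ccr2 by 2.04 and Gpnmb by 3.70, whereas the Kupffer cell markers Clec4f (-0.13) and Timd4 (-0.12) were not called. Of 12 neutrophil markers, 3 were higher (Retnlg, Mmp8 and Mmp9), with a summed level of 7.65 to 10.52 against 7.07 to 8.11. The granule genes Elane, Mpo, Ngp, Camp and Ltf remained at means of 2.58 to 3.22, below the array medians. Further, 7 of 9 stellate cell markers and 2 of 5 cholangiocyte markers were higher, where 12.8% of all probe sets were. Cyp4f18 was not called in ketogenic PPARα-/- or PPARα/CREB3L3-/- mice. Of the 16 markers of macrophages and monocytes, 9 were lower and 1 higher in PPARα-/- mice, where 4.81% of all probe sets were lower. In PPARα/CREB3L3-/- mice 6 were lower and 1 higher, where 6.87% of all probe sets were lower. The part of these cells in the Cyp4f18 level was not tested.

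**Figure D3:**
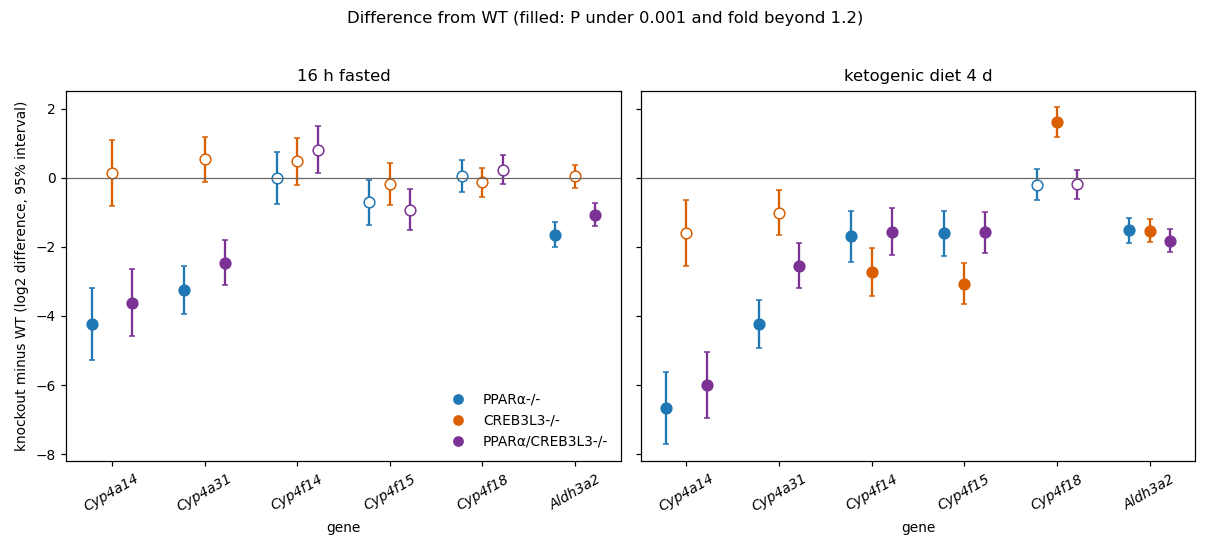
Difference of each knockout from wild-type mice of the same regimen (y axis, log2 difference with its 95% interval) for the 6 genes (x axis). Filled circles were called (P under 0.001 and fold beyond 1.2) and open circles were not. CREB3L3-/- mice have 0 filled circles in the fasted state and 4 on the diet, the lowest of them Cyp4f15 at -3.07.

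To determine whether the losses of PPARα and CREB3L3 added up, the difference of the combined knockout from wild-type mice was set against the sum of both single differences. An interaction of 0 means that the losses are additive on the log2 scale. On the ketogenic diet 5 of the 6 genes departed from additivity, where 15.9% of all probe sets did. The combined loss lowered Cyp4a31 by less than the sum, with an interaction of 2.70 (SE 0.47, adjusted p = 6.45e-05). The same held for Cyp4f14 (2.86, SE 0.49, adjusted p = 5.79e-05), Cyp4f15 (3.09, SE 0.43, adjusted p = 3.24e-06) and Aldh3a2 (1.23, SE 0.24, adjusted p = 0.000289). For Cyp4f18 the interaction was -1.60 (SE 0.30, adjusted p = 0.000181), since the increase without CREB3L3 was not seen when PPARα was also missing. Cyp4a14 had an interaction of 2.28 (SE 0.69, adjusted p = 0.0148), which was not called, but was without PPARα-/- ketogenic replicate 1 (adjusted p = 0.000821) or PPARα/CREB3L3-/- ketogenic replicate 2 (2.63, adjusted p = 0.00449). Its level reached 4.82 in ketogenic PPARα-/- replicate 3, close to the array medians of 4.22 to 4.38. How far low signals limited a further decrease, and so the interactions, was not tested.

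In the fasted state 0 of the 6 interactions were called, where 0.762% of all probe sets were. In the limma fit 1 of the 6, that of Aldh3a2 (0.55, SE 0.24), had an unadjusted p under 0.05, and IBMT called 0. The interval was -0.94 to 1.89 for Cyp4a14 and -0.92 to 0.84 for Cyp4f15, so that departures within these bounds could not be told from additivity. Of the differences between the fasted PPARα/CREB3L3-/- and PPARα-/- mice 0 were called, where 1.67% of all probe sets were, 3 had an unadjusted p under 0.05 in limma (Cyp4a31, Cyp4f14 and Aldh3a2) and IBMT called 0. That of Cyp4f14 (0.82) was called with the fasted arrays alone (adjusted p = 0.0108).

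**Figure D4:**
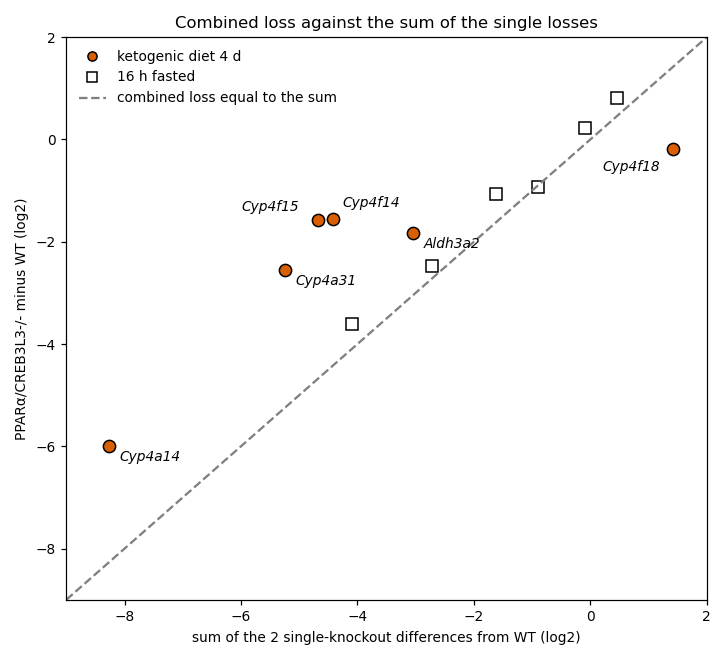
Difference of PPARα/CREB3L3-/- from wild-type mice (y axis, log2) against the sum of the differences of both single knockouts (x axis, log2), 1 point for each gene and regimen. On the dashed line the combined loss equals the sum; the 5 ketogenic points left of zero lie above the line, Cyp4f15 by 3.09, and Cyp4f18 lies 1.60 below it, whereas 0 fasted points (squares) had a called departure.

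Ketogenic and fasted mice of the same genotype were also compared. In wild-type mice 0 of the 6 genes were called, where 4.25% of all probe sets were; 1 gene, Cyp4a31 (-0.68, SE 0.32), had an unadjusted p under 0.05 in limma and IBMT called 0. The wild-type levels of Cyp4a14, Cyp4a31 and Cyp4f15 did not overlap between the regimens, although limma called none of them (adjusted p = 0.756, 0.231 and 0.462). The means were 12.57 against 12.92 for Cyp4a14 and 10.06 against 10.49 for Cyp4f15. How many of all probe sets lacked overlap was not counted, so these separations are descriptions only. In PPARα-/- mice 4 genes were lower on the diet, where 4.46% of all probe sets were lower: Cyp4a14 by 6.98-fold, Cyp4a31 by 3.16-fold, Cyp4f14 by 2.99-fold and Cyp4f15 by 2.50-fold. The difference of Cyp4a14 was -2.80 with all arrays and -3.53 without PPARα-/- ketogenic replicate 1, and its call was lost when the arrays of the compared groups were fitted alone (adjusted p = 0.0178). The call of Cyp4f15 was lost without any 1 of the 6 PPARα-/- arrays (adjusted p = 0.0123 to 0.0268) and that of Cyp4f14 without 4 of them. The call of Cyp4a31 was lost without PPARα-/- fasted replicate 1 (adjusted p = 0.0182). In CREB3L3-/- mice all 6 genes changed, where 25.4% of all probe sets did: Cyp4f15 was 9.95-fold, Cyp4f14 8.60-fold, Cyp4a31 4.68-fold, Cyp4a14 4.24-fold and Aldh3a2 2.50-fold lower, and Cyp4f18 was 3.69-fold higher. The call of Cyp4a14 was lost without CREB3L3-/- ketogenic replicate 2 (adjusted p = 0.00458) or 3 (adjusted p = 0.00528). In PPARα/CREB3L3-/- mice 3 genes were lower, where 7.09% of all probe sets were lower: Cyp4a14 by 6.65-fold, Cyp4f14 by 4.82-fold and Cyp4f15 by 2.12-fold. The last call was lost in 25 of 30 fits that each left out 1 array.

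The difference of these knockout effects between the regimens was tested as well. The effect of CREB3L3 loss differed for 4 genes, where 13.8% of all probe sets did. It was lower on the diet for Cyp4f14 by -3.20 (SE 0.47, adjusted p = 9.76e-06), for Cyp4f15 by -2.89 (SE 0.41, adjusted p = 6.45e-06) and for Aldh3a2 by -1.57 (SE 0.23, adjusted p = 1.02e-05), and higher for Cyp4f18 by 1.75 (SE 0.29, adjusted p = 4.83e-05). That of Cyp4a31 (-1.55, adjusted p = 0.012) was called without CREB3L3-/- ketogenic replicate 1 or 4 (adjusted p = 0.00569 and 0.00377). For the combined loss only Cyp4f14 differed (-2.37, SE 0.47, adjusted p = 0.000802), where 8.26% of all probe sets did. Cyp4a14 followed at -2.38 (SE 0.66, adjusted p = 0.0152), which was called without PPARα/CREB3L3-/- fasted replicate 2 or 3 or PPARα-/- ketogenic replicate 1 or 3 (adjusted p = 0.00505 to 0.0116). Aldh3a2 (-0.75, adjusted p = 0.0289) was called without CREB3L3-/- ketogenic replicate 3 (adjusted p = 0.0116). For the loss of PPARα 0 genes were called, where 4.83% of all probe sets were. In limma 2 had an unadjusted p under 0.05, Cyp4a14 (-2.45, SE 0.71) and Cyp4f14 (-1.68, SE 0.51), and IBMT called 0. Cyp4a14 was called without PPARα-/- ketogenic replicate 1 (-3.18, adjusted p = 0.00277) and Cyp4f14 without CREB3L3-/- ketogenic replicate 1 or 3 (adjusted p = 0.000881 and 0.0127).

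Ordered by group mean, Cyp4a14 ran from 13.06 in fasted CREB3L3-/- over 12.92 and 12.57 in fasted and ketogenic wild-type and 10.97 in ketogenic CREB3L3-/- mice to 9.31, 8.70, 6.57 and 5.89 in fasted PPARα/CREB3L3-/-, fasted PPARα-/-, ketogenic PPARα/CREB3L3-/- and ketogenic PPARα-/- mice. For Cyp4f15 the order ran from 10.49 in fasted wild-type mice to 6.99 in ketogenic CREB3L3-/- mice. Neighbours in the order of Cyp4a14 whose ranges overlapped were ketogenic CREB3L3-/- and fasted PPARα/CREB3L3-/-, the 2 fasted groups without PPARα, and the 2 ketogenic groups without PPARα. For Cyp4f18 all 7 groups other than ketogenic CREB3L3-/- lay between means of 2.92 and 3.29 and each overlapped with the next.

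Over the 30 livers Pearson's r was 0.951 between Cyp4a14 and Cyp4a31 and 0.898 between Cyp4f14 and Cyp4f15. Aldh3a2 correlated at 0.804 with Cyp4a14, at 0.803 with Cyp4a31 and at 0.658 with Cyp4f15. Cyp4f18 correlated at -0.753 with Cyp4f15 and at 0.0788 with Cyp4a14. Among the other 21217 probe sets of 1 symbol, the genes most like Cyp4a14 were Fabp1 (0.959), Ehhadh (0.953) and Cyp4a31, and those most like Cyp4a31 were Foxp2 (0.959), Cyp4a14 and Ehhadh (0.941). Those most like Cyp4f14 were Cyp2c67 (0.972), Ghr (0.960) and Uox (0.960), and those most like Cyp4f15 were Slc27a2 (0.973), Acad11 (0.973) and Kmo (0.972). Cyp4f18 was most like Car13 (0.954), Pkm (0.949) and Myof (0.944), and Aldh3a2 was most like Acsf2 (0.962 and 0.962 on 2 probe sets), Eci1 (0.960) and Ech1 (0.948). These are descriptions over livers that share genotypes and regimens, and a difference between groups alone can produce them.

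Other genes of the route were measured on 1 probe set each. Of 9 further Cyp4 genes limma called 0 in each of the 3 fasted knockouts, with list medians of 0.033 for PPARα-/-, 0.076 for CREB3L3-/- and -0.029 for PPARα/CREB3L3-/- mice, where 3, 0 and 3 had an unadjusted p under 0.05. Beside this, 1.77% of all probe sets were lower in fasted PPARα-/- and 2.79% in fasted PPARα/CREB3L3-/- mice, and 1.39% were called in fasted CREB3L3-/- mice. The fasted mean of Cyp4a12a was 11.93 in wild-type, 11.03 in PPARα-/- and 10.67 in PPARα/CREB3L3-/- mice. That of Cyp4a12b was 12.03, 10.98 and 10.93. Neither gene overlapped with wild-type in these knockouts. Cyp4f16 was higher in fasted PPARα-/- mice (5.71 against 5.15), also without overlap. Cyp4f37, Cyp4f39, Cyp4f40 and Cyp4x1 had fasted means below the array medians. On the diet Cyp4a12a and Cyp4a12b, fatty acid omega-hydroxylases of male mouse liver with nearly the same sequence, were lower in all knockouts. The difference of Cyp4a12a was -3.25 in PPARα-/-, -2.46 in CREB3L3-/- and -2.49 in the combined knockout, and that of Cyp4a12b was -3.11, -2.55 and -2.35. In ketogenic CREB3L3-/- mice, 4 of the 9 genes were lower and 1 was higher, where 8.56% of all probe sets were lower and 12.8% higher. Cyp4f13 was lower (-1.54, adjusted p = 1.53e-09), whereas Cyp4f16 was higher (2.12, adjusted p = 1.87e-08). Genes of the CYP4F subfamily moved in both directions in these livers. The median difference of the 9 genes was -0.35, beside -0.065 over all probe sets. Cyp4f16 also lay above wild-type in ketogenic PPARα/CREB3L3-/- livers, at 6.61 to 7.05 against 4.89 to 6.13. Ketogenic PPARα-/- livers gave 5.99 to 6.25 and overlapped with wild-type.

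For the electron donors of the cytochromes P450, Cyb5r3, the cytochrome b5 reductase, was lower in fasted PPARα-/- mice (-1.13, adjusted p = 5.76e-07) and in fasted PPARα/CREB3L3-/- mice (-0.61, adjusted p = 4.54e-04), and Cyb5a, the microsomal cytochrome b5, was lower in ketogenic CREB3L3-/- mice (-0.93, adjusted p = 2.38e-11). In each of these comparisons this was 1 of 3 measured genes, where 1.77%, 2.79% and 8.56% of all probe sets were lower. On the diet 2 of 3 were lower in PPARα-/- and in PPARα/CREB3L3-/- mice, where 4.81% and 6.87% of all probe sets were lower. Cyb5r3 and Cyb5b, the mitochondrial cytochrome b5, differed by -0.59 and -0.60 in PPARα-/- mice and by -0.54 and -1.20 in PPARα/CREB3L3-/- mice. Downstream, 4 of 13 alcohol and aldehyde dehydrogenases were lower in fasted PPARα-/- mice, where 1.77% of all probe sets were: Aldh9a1 (-1.12), Adh4 (-1.33), Aldh1a1 (-0.67) and Adh1 (-0.48). In the fasted combined knockout, where 2.79% of all probe sets were lower, only Aldh9a1 (-1.32) was lower than in wild-type mice. Aldh1a1 (0.28) and Adh1 (0.12) were not called. Relative to fasted PPARα-/- mice 3 of the 13 were higher there, Aldh1a1 (0.95), Adh1 (0.60) and Aldh1a7 (0.67), where 1.67% of all probe sets were called in either direction. On the diet 6 were lower in each knockout and 1, Aldh3b1, was higher in CREB3L3-/- mice (1.67, adjusted p = 1.02e-06). Adh4, an alcohol dehydrogenase active on long-chain alcohols, differed by -2.16 in PPARα-/-, -2.91 in CREB3L3-/- and -2.44 in the combined knockout. The median difference of the 13 dehydrogenases on the diet was -0.31, -0.28 and -0.53, beside 0.0057, -0.065 and 0.014 over all probe sets.

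Of 13 genes for the peroxisomal breakdown of dicarboxylic acids, 7 were lower in fasted PPARα-/- and 7 in fasted PPARα/CREB3L3-/- mice, where 1.77% and 2.79% of all probe sets were lower. In fasted CREB3L3-/- mice limma called 0 of the 13 and 1.39% of all probe sets, and 4 of the 13 had an unadjusted p under 0.05. Ehhadh, the bifunctional enzyme of the peroxisome, differed by -2.62 in fasted PPARα-/- (adjusted p = 3.33e-11) and by -2.49 in fasted PPARα/CREB3L3-/- mice (adjusted p = 9.68e-12). On the diet 7 were lower and 1 higher in PPARα-/-, 9 lower and 1 higher in CREB3L3-/- and 10 lower in the combined knockout. Among them Hsd17b4, the second multifunctional enzyme, differed by -1.50 in PPARα-/-, -1.17 in CREB3L3-/- and -1.44 in the combined knockout. Abcd3, the transporter that carries dicarboxylic acids into peroxisomes, differed by -1.05, -1.06 and -0.97. Ehhadh was not among those called in ketogenic CREB3L3-/- mice, with a mean of 11.39 against 11.86 in wild-type mice. Cyp4a14 (-1.60, adjusted p = 0.00903) and Cyp4a31 (-1.02, adjusted p = 0.0141) also missed the call, at larger differences. The median difference of the 13 genes was -1.50, -1.17 and -1.24, beside 0.0057, -0.065 and 0.014 over all probe sets.

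Of 11 genes for PPARα, CREB3L3 and their partners, PPARα-/- mice on the diet had 4 called lower, CREB3L3-/- mice 7 and the combined knockout 5, counting the targeted genes themselves, and 0 were higher. Of all probe sets 4.81%, 8.56% and 6.87% were lower in these comparisons. The list medians were -0.26, -0.68 and -0.46, beside 0.0057, -0.065 and 0.014 over all probe sets. Rxra, which encodes the partner with which PPARα binds DNA, differed by -1.08 in ketogenic CREB3L3-/- mice. In the fasted state limma called 0 in PPARα-/- mice, where 6 had an unadjusted p under 0.05, 1, the deleted Creb3l3 itself, was lower in CREB3L3-/- mice, and 3 were lower and 1 higher in PPARα/CREB3L3-/- mice. Of all probe sets 1.77% were lower in fasted PPARα-/- and 2.79% in fasted PPARα/CREB3L3-/- mice, and 1.39% were called in fasted CREB3L3-/- mice.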

How the data were processed

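RNA of whole livers was hybridized to Affymetrix Mouse Gene 1.1 ST arrays, 1 liver each. The authors normalized the arrays by RMA, and the deposited values are log2 intensities of 35556 probe sets. Software versions were not given in the sources used. A remapped chip definition is mentioned in the study's methods, whereas the deposited identifiers are the manufacturer's. Probe sets were named from the platform annotation: 21218 had 1 symbol, 1881 several and 12457 none. The number of arrays limits the precision.

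A linear model with 8 group means over all 30 arrays was fitted with limma 3.58.1 in R 4.3.3 (eBayes with intensity trend, 22 residual and 3.47 prior degrees of freedom), tested on simulated data. A call required P under 0.001 and fold beyond 1.2, the study's criteria, and p values were adjusted over all probe sets by Benjamini-Hochberg. SE is the standard error, and intervals cover 95%. Lists of further Cyp4 genes, electron donors, dehydrogenases, dicarboxylate breakdown, PPARα partners and cell type markers were described by counts and medians, on 1 probe set for each gene. Genes of these lists were named by lowest P among those called (up to 4 for each list and comparison). Cyb5r3, Cyb5b, Ehhadh, Aldh3b1, Aldh1a1, Adh1, the markers of macrophages and the fasted levels of further Cyp4 genes were also named after their values had been seen. Summed marker levels are the log2 of summed linear intensities. The members and lists were chosen with earlier results of these data known.

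Alternatives were fits of 1 regimen or of the compared groups, a replicate block, array weights, no or robust trend, IBMT with loess, median centring, repeated quantile normalization, other filters and thresholds, and each array left out. Promoters came from RefSeq (GRCm38.p6). Figures were drawn with matplotlib 3.10.9 in Python 3.11.15.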

Additional observations from a re-analysis of the deposited data

Results flagged for a closer look

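In 5 of 36 groups of 4 livers, 1 liver stood apart from the others by Dixon's criterion, which chance meets in about 1 of 20 groups. These were Cyp4a14 in fasted CREB3L3-/- replicate 1 (13.20), Cyp4f14 in fasted wild-type replicate 1 (8.79), Cyp4f18 in fasted PPARα/CREB3L3-/- replicate 1 (2.88), and Aldh3a2 in ketogenic wild-type replicate 2 (12.24) and ketogenic CREB3L3-/- replicate 3 (9.90).

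On the ketogenic diet, the effect of CREB3L3 loss differed between mice with and without PPARα, by 2.70 for Cyp4a31, 2.86 for Cyp4f14, 3.09 for Cyp4f15, 1.23 for Aldh3a2 and -1.60 for Cyp4f18. Between the regimens, the effect of CREB3L3 loss differed by -3.20 for Cyp4f14, -2.89 for Cyp4f15, -1.57 for Aldh3a2 and 1.75 for Cyp4f18, and the effect of the combined loss by -2.37 for Cyp4f14. Each difference was tested within the same fit.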

How the results depend on the processing

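The number of the 6 genes called stayed within 1.5 times its main value in 223 of 240 cases of a comparison and an alternative other than a left-out array. With the arrays of 1 regimen, fasted PPARα/CREB3L3-/- against wild-type rose from 3 to 5 and against PPARα-/- from 0 to 1, and ketogenic PPARα-/- against wild-type fell from 5 to 3. With the arrays of the compared groups, an alternative added after the data had been seen, fasted PPARα/CREB3L3-/- against wild-type also gave 5, fasted CREB3L3-/- against wild-type and wild-type between regimens gave 1 each, and ketogenic PPARα/CREB3L3-/- against CREB3L3-/- gave 2. The effect of the combined loss by regimen rose from 1 to 3 with adjusted p under 0.05 as the threshold, and to 2 with array weights, the compared groups, probe sets of 1 symbol, repeated quantile normalization or the replicate block. That of PPARα loss rose from 0 to 2 with adjusted p or array weights, to 3 with the compared groups and to 1 with the replicate block. The causes were not tested.

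Replicate numbers did not pair the samples: over 99 pairs of same-numbered arrays, deviations from the group mean correlated at 0.0074 on average (-0.11 to 0.12), and 9 of 30 arrays correlated best with their own number. The fit with the replicate block added calls for Cyp4a14 and Cyp4a31 in ketogenic CREB3L3-/- against wild-type mice, for Cyp4a31 in the effect of CREB3L3 loss by regimen and for Cyp4a14 in the other effects by regimen, and lost that of Cyp4f15 between regimens in PPARα/CREB3L3-/- mice.

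Signs reversed only for differences that were not called. For ketogenic PPARα/CREB3L3-/- against PPARα-/- mice, Cyp4f18 turned to -0.017 with array weights, -0.029 with median centring and -0.021 with repeated quantile normalization, and Cyp4f15 to -0.017 with median centring and -0.041 with the replicate block. Aldh3a2 in fasted CREB3L3-/- mice turned to -0.0091 with median centring, and Cyp4f14 in fasted PPARα-/- mice to 0.030 with the replicate block. With each array left out, ketogenic PPARα/CREB3L3-/- against PPARα-/- mice ran from -0.0029 to 0.33 for Cyp4f14, -0.082 to 0.12 for Cyp4f15 and -0.083 to 0.090 for Cyp4f18. Fasted PPARα-/- against wild-type mice ran from -0.14 to 0.093 for Cyp4f14 and -0.042 to 0.13 for Cyp4f18, and fasted CREB3L3-/- mice from -0.034 to 0.083 for Aldh3a2. The fasted interaction of Cyp4f15 ran from -0.12 to 0.027, the effect of PPARα loss by regimen from -0.013 to 0.32 for Aldh3a2, and that of the combined loss from -0.30 to 0.15 for Cyp4a31.

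With each array left out, counts of calls ran from 4 to 5 for ketogenic PPARα/CREB3L3-/- against CREB3L3-/-, 0 to 1 for fasted PPARα/CREB3L3-/- against PPARα-/-, 3 to 5 for fasted PPARα/CREB3L3-/- against wild-type, 2 to 4, 5 to 6 and 2 to 3 between regimens in PPARα-/-, CREB3L3-/- and PPARα/CREB3L3-/- mice, and 0 to 1, 4 to 5 and 1 to 2 for the effects by regimen. For the ketogenic interaction the range was 5 to 6 and for ketogenic CREB3L3-/- against wild-type 4 to 5. The fasted wild-type mean of Cyp4a14 moved from 12.92 to 12.78 with repeated quantile normalization.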
